A study of Rattus norvegicus with 6 samples.

Results

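The tachykinins are a family of short neuropeptides, and 5 genes of the family and its receptors were examined here in the prelimbic cortex (PL) of rats with a nerve injury: the peptide genes Tac1 and Tac3 and the receptor genes Tacr1, Tacr2 and Tacr3. They were taken by gene symbol from the platform annotation of the Affymetrix rat genome arrays, keeping the probe sets that carry no second symbol. This gave 6 probe sets out of 31042 tested and 5 genes out of 14217. Each gene had 1 probe set except Tacr1, which had 2.

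All rats were male Sprague-Dawley rats, acquired at 6 to 7 weeks of age. In the SNI group the tibial and common peroneal branches of the left sciatic nerve were cut and the sural nerve was spared, and in the control group the nerves were exposed and left whole. Anesthesia for surgery was isoflurane by the sample labels and pentobarbital by the methods of the study, and the PL of the side opposite to the injury was dissected after 14 days. There were 3 samples per group, and the sources do not say whether each came from a separate rat, so p-values here speak of sample-to-sample spread only, and part of it can be technical. The comparison asks whether mRNAs of the PL differ between rats with neuropathic pain and rats with sham surgery.

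Tachykinin genes encode precursor proteins, which are cut and amidated in secretory granules before release. Tac1 gives substance P and neurokinin A and Tac3 gives neurokinin B, and the receptors encoded by Tacr1, Tacr2 and Tacr3 (NK1, NK2 and NK3) prefer substance P, neurokinin A and neurokinin B in that order. All of these receptors couple to Gq proteins, which raise calcium inside the cell, and substance P is best known as a transmitter of pain fibres in the spinal cord. In the forebrain Tac1 is made by striatal projection neurons of the direct pathway and by some GABA neurons of the cortex.

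Tac1 was the single member with an unadjusted p under 0.05, so short stretches upstream of it and of the receptor genes are shown for an element known from many neuropeptide promoters, the cyclic AMP response element (CRE), whose core is TGACG on either strand. The sequences are those of RefSeq, build GRCr8, which held a promoter for 4 of the 5 genes (Tac3 was not in it). All run 5′ to 3′ along the gene, and the capitals mark the CRE core or, in the second stretch of Tac1, an E-box (CACGTG).
Tac1 CRE core (chr4:36645364-36645393, + strand): ttccctaaaattgCGTCAtttcgaacccaa
Tac1 E-box (chr4:36645499-36645528, + strand): tggggagagtgtCACGTGgctctccaggct
Tacr1 CRE core (chr4:116478535-116478564, + strand): agccccttcccagTGACGtctctgcagcgg
Tacr3 first CRE core (chr2:225940354-225940383, + strand): ggaggaggtgttcCGTCAgtcgctacccgc
Tacr3 second CRE core (chr2:225940373-225940402, + strand): tcgctacccgcgaCGTCAcggaagctgggg
The core lay 206 bases before the start used for Tac1, 69 bases before that of Tacr1, and 130 and 111 bases before that of Tacr3. The start used for Tac1 lies 239 bases inside the span RefSeq gives the gene, so these stretches can be transcribed in a longer transcript. In the 250 bases before the start, 18.2% of 33469 RefSeq promoters hold the CRE core, 5.59% hold the E-box, and 1.59% hold the whole CRE (TGACGTCA, which contains the core on both strands). No member held the whole CRE, and Tacr2 held neither the core nor the E-box. These matches describe letters in a window and not binding of a factor.

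The arrays did not all lie together. Control samples 1 and 3 stood apart from the other 4 on the first principal component (35.8% of the variance), and 70.1% of the probe sets had a larger SD among control than among SNI samples. Transcripts put in at hybridization as array controls (the hybridization controls), which are not of the rat, differed in mean from array to array. Their mean was 0.054 to 0.19 on the SNI arrays and −0.22 to −0.047 on the control arrays. The deposited values are log2 signals, and each probe set is set to a median of 0 across the arrays. They therefore show differences between samples, but not how much of an mRNA was present, whether it was above background, or whether the tissue carried the markers of PL.

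Tac1 was lower in the SNI group. Control samples 1, 2 and 3 read 0.20, 0.18 and 0.47, and SNI samples 1, 2 and 3 read −0.27, −0.19 and −0.18. Every SNI sample lay under every control sample, and control sample 3 was the highest of the 6. The control mean was 0.28 ± 0.16 (SD, n = 3) and the SNI mean −0.21 ± 0.05 (SD, n = 3). The log2 difference was −0.50 (SE 0.09, 95% confidence interval −0.69 to −0.30), which is 29.2% less signal, with a fold of 0.708 and an interval of 0.618 to 0.811. Its unadjusted p in limma was 0.000388, and it did not pass adjustment, with an adjusted p = 0.143 over 14217 genes and 0.0948 over 31042 probe sets. It had the 38th smallest p of the 14217 genes, and 27 genes (0.190%), Tac1 among them, had a difference as low or lower. Over genes, 1870 had an unadjusted p under 0.05 in limma (1787 by the methods' t-test) and none an adjusted p under 0.05 by either, while 10 probe sets (0.0322%) passed that in limma, none of them of a tachykinin gene or receptor.

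Tac1 was the single member with an unadjusted p under 0.05, 1 of 5, beside 13.2% of all genes tested (9.19% lower and 3.96% higher in the SNI group). It was also the single member whose groups did not overlap, beside 20.1% of all genes. A count of 1 in 5 is near both backgrounds, so the family as a group is not set apart by it. Tac1 was read by 1 probe set, whose suffix marks probes shared by several transcripts of a gene, so its splice forms cannot be told apart.

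**Figure D1:**
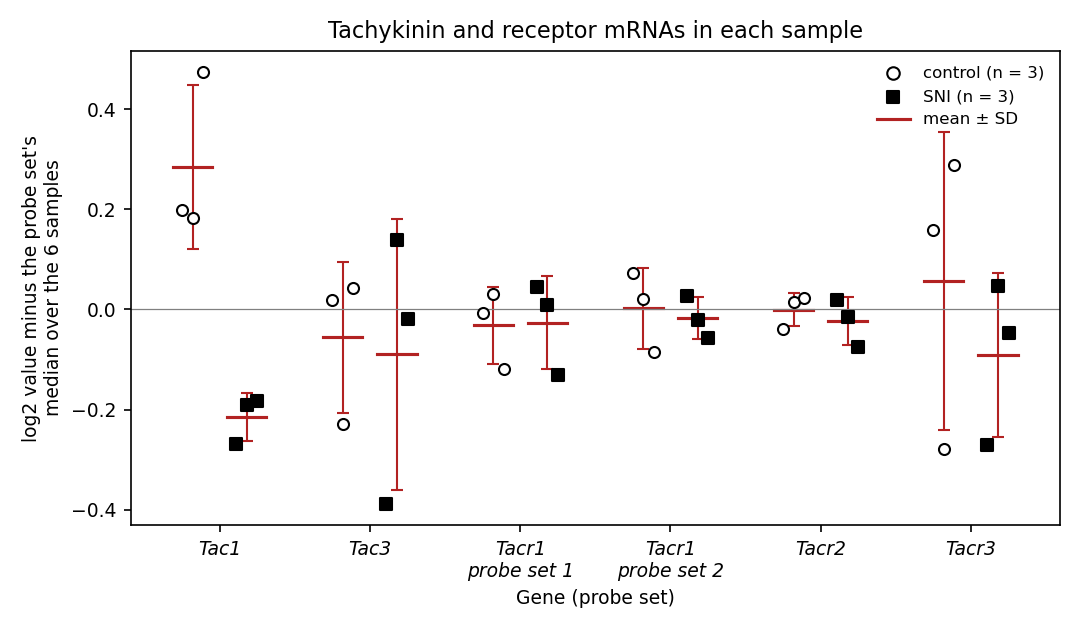
Expression in each sample on the log2 scale, with the 6-sample median of a probe set at 0 (y axis), for the 6 probe sets of the 5 genes (x axis). Open circles are the 3 control samples and filled squares the 3 SNI samples, each in the order 1 to 3 from left to right, with the mean and SD in red. The Tac1 squares run from −0.27 to −0.18 and its circles from 0.18 to 0.47, and for every other probe set the groups overlap.

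Tac3, the neurokinin B gene, varied between samples without following the groups. The SNI samples were at −0.39, 0.14 and −0.02 and the control samples at 0.02, −0.23 and 0.04. SNI samples 1 and 2 were the lowest and the highest of the 6, and the groups overlapped. The SNI mean was −0.09 ± 0.27 (SD, n = 3) and the control mean −0.06 ± 0.15 (SD, n = 3). The log2 difference was −0.03 (SE 0.14, limma adjusted p = 0.947), and its 95% confidence interval, −0.35 to 0.28, leaves room for a change in either direction. The sign was not fixed: the difference was 0.12 without SNI sample 1, 0.0036 without control sample 1, 0.015 without control sample 3 and 0.23 with the mean of the hybridization controls as a covariate.
Whether Tac1 and Tac3 differ in response was read within each array. Tac1 minus Tac3 was 0.12, −0.33 and −0.16 in the SNI samples and 0.18, 0.41 and 0.43 in the control samples. The groups did not overlap and differed by −0.46 on the log2 scale. An exact two-sided permutation test gave p = 0.1 (n = 3 per group), the smallest that 3 against 3 samples allow. The lower Tac1 alone can set the groups apart here, so this is no separate evidence of a different response.

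The substance P receptor gene Tacr1 was nearly the same in both groups. Its first probe set had 0.05, 0.0081 and −0.13 in the SNI samples and −0.0081, 0.03 and −0.12 in the control samples. The second had 0.03, −0.02 and −0.06 in the SNI samples and 0.07, 0.02 and −0.09 in the control samples. In both groups sample 3 was the lowest on both probe sets, and the groups overlapped throughout. The 2 probe sets gave log2 differences of 0.0057 (SE 0.07) and −0.02 (SE 0.07), and their mean, the gene value, one of −0.0069 (SE 0.06, limma adjusted p = 0.979). The 95% confidence interval of the gene, −0.15 to 0.14, is a fold of 0.899 to 1.10 and does not reach the difference of Tac1. As the values carry no level, this does not tell an unchanged mRNA from one below the background of the array.
The neurokinin A receptor gene Tacr2 had the narrowest spread of the members. It had 0.02, −0.02 and −0.07 in the SNI samples and −0.04, 0.02 and 0.02 in the control samples. The log2 difference was −0.02 (SE 0.05, 95% confidence interval −0.15 to 0.10, limma adjusted p = 0.898). Since the values carry no level, this narrow spread does not tell a steady mRNA from one below the background of the array.
Tacr3, the neurokinin B receptor gene, varied most among the receptors. The SNI samples were at −0.27, 0.05 and −0.05 and the control samples at 0.16, −0.28 and 0.29, so the lowest and the highest of the 6 were both control samples. The SNI mean was −0.09 ± 0.16 (SD, n = 3) and the control mean 0.06 ± 0.30 (SD, n = 3). The log2 difference of −0.15 (SE 0.15) had a 95% confidence interval of −0.49 to 0.19 and a limma adjusted p = 0.719. The value moved with several samples. It was −0.03 without control sample 3, −0.06 without SNI sample 1 and −0.10 without control sample 1. Without control sample 2 it was −0.31 with an unadjusted limma p of 0.0164 (adjusted p = 0.140), and with that sample as the lone control, samples 1 and 3 left out, it was 0.19.

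**Figure D2:**
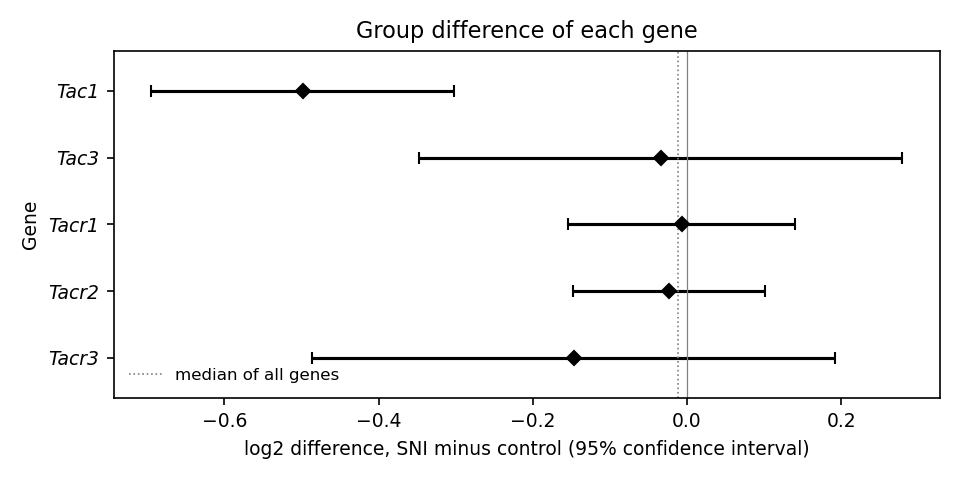
Log2 difference, SNI minus control (x axis), of the 5 genes (y axis); diamonds are limma estimates from 3 samples per group, bars are 95% confidence intervals, and the dotted line is the median of all genes (−0.01). The interval of Tac1 (−0.69 to −0.30) lies under 0 and those of the other genes hold 0.

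The members fell into wide and narrow ones by their range over all 6 samples, which includes any difference between the groups. Tac1, Tacr3 and Tac3 had ranges of 0.74, 0.57 and 0.53 on the log2 scale, wider than those of 98.2%, 95.2% and 93.5% of all genes, whose median range was 0.26. Tacr1 and Tacr2 had ranges of 0.14 and 0.10, and 12.2% and 4.11% of genes had narrower ones. Of the 3 members with a wide range, Tac1 was the one whose range followed the groups. The SD within groups, pooled over both, was 0.12 for Tac1, 0.22 for Tac3 and 0.24 for Tacr3.

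Of 12 genes for the processing of tachykinin precursors and their storage in granules, 11 were measured, of which 5 had an unadjusted p under 0.05 and were lower, none was higher, and 6 did not pass, where 9.19% of all genes were lower at that threshold. Their median log2 difference was −0.10, beside −0.01 for all genes, and none passed an adjusted p of 0.05.
Pcsk2, a convertase that cuts neuropeptide precursors, was at −0.26, −0.16 and −0.10 in the SNI samples and at 0.14, 0.10 and 0.14 in the control samples. Its groups did not overlap, and the difference on the log2 scale was −0.30 (SE 0.06, limma adjusted p = 0.175). Qpct, which forms pyroglutamate at the ends of some peptides but is not needed for substance P, was at −0.36 (SE 0.11) and Scg5, the chaperone of the Pcsk2 protein, at −0.17 (SE 0.05).
The granule proteins Scg2 and Chgb, at −0.24 and −0.14, were the other 2. Cpe and Pam, which trim and amidate the peptide ends, were at −0.00061 (SE 0.05) and −0.01 (SE 0.06). The count of 5 was 1 without control samples 1 and 3, 3 without control sample 3 alone, 2 without SNI sample 1, 3 without SNI sample 3, 3 by the methods' t-test and 0 with the hybridization controls as a covariate.

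Peptidases act on the peptides after release, and Gq proteins and receptor kinases act behind the receptors. Of 7 peptidases that can cleave tachykinins, 1 (14.3%) was lower at an unadjusted p under 0.05 and none was higher. This was Prep, a cytosolic prolyl endopeptidase, at −0.28 (SE 0.06, limma adjusted p = 0.196), while Ece2 was at 0.10 (SE 0.06) and Anpep at 0.10 (SE 0.08). Mme, the neprilysin that degrades substance P at the cell surface, was at 0.04 (SE 0.08).
Of 19 genes listed for Gq signalling 18 were measured, among them Gnas, the alpha subunit of a different G protein (Gs). None was higher and 2 (11.1%, near the 9.19% of all genes) were lower. These were Dgkb, a diacylglycerol kinase, at −0.26 (SE 0.07), and Gnaq, the alpha subunit of Gq, at −0.21 (SE 0.07), and the count was 1 without SNI sample 3 or without control sample 1 and 0 with the covariate. Rgs2, which limits Gq signals, was at −0.11 (SE 0.05) and did not pass. All 6 genes of receptor desensitization were measured, and 1 (16.7%), the kinase Grk5, was lower, at −0.23 (SE 0.08). Grk2 was at 0.07 (SE 0.06) and the arrestin Arrb1 at −0.04 (SE 0.06). That count of 1 was 0 without SNI sample 1, SNI sample 2, control sample 2 or control sample 3, by the methods' t-test and with the covariate. The medians of these 3 lists were 0.0057, −0.02 and −0.02, close to the −0.01 of all genes.

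Tac1 was not the only peptide gene with lower values. Of 18 other neuropeptide genes 16 were measured, 3 were lower at an unadjusted p under 0.05 and none was higher, a share of 18.8% beside the 9.19% of all genes. Their median log2 difference was −0.12.
Penk, the enkephalin precursor, was at −0.15, −0.19 and −0.18 in the SNI samples and at 0.15, 0.26 and 0.28 in the control samples. The groups lay clearly apart, and the log2 difference was −0.40 (SE 0.06, limma adjusted p = 0.127). Within each array, Tac1 minus Penk differed by −0.098 with overlapping groups (exact two-sided permutation p = 0.4, n = 3 per group). Tac1 minus the mean of the other neuropeptides differed by −0.36 without overlap (exact two-sided permutation p = 0.1, n = 3 per group, the smallest possible). The lower Tac1 alone can set the groups apart here too, so this is no separate evidence that Tac1 differed more than other peptide genes. Grp, gastrin-releasing peptide, was at −0.38 (SE 0.11) and Gal, galanin, at −0.17 (SE 0.07). The count of 3 was 5 without control sample 1 or control sample 3. It was 2 without SNI sample 3, without control sample 2 and by the methods' t-test.
Of 22 receptors for these peptides 21 were measured, and the median was 0.02. Of these, 3 (14.3%) were lower and 1 (4.76%) was higher, beside 9.19% and 3.96% of all genes. Npy1r, a receptor of neuropeptide Y, was at −0.27 (SE 0.09), Oprl1, the nociceptin receptor, at −0.21 (SE 0.07) and Ntsr2, a neurotensin receptor, at 0.18 (SE 0.07). The count of lower receptors was 1 without SNI sample 1 or SNI sample 2, and that of higher ones was 5 without control sample 2 and 0 without SNI sample 2 or SNI sample 3. By the methods' t-test both counts were 0, and with the covariate 1 was lower and 1 higher.

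**Figure D3:**
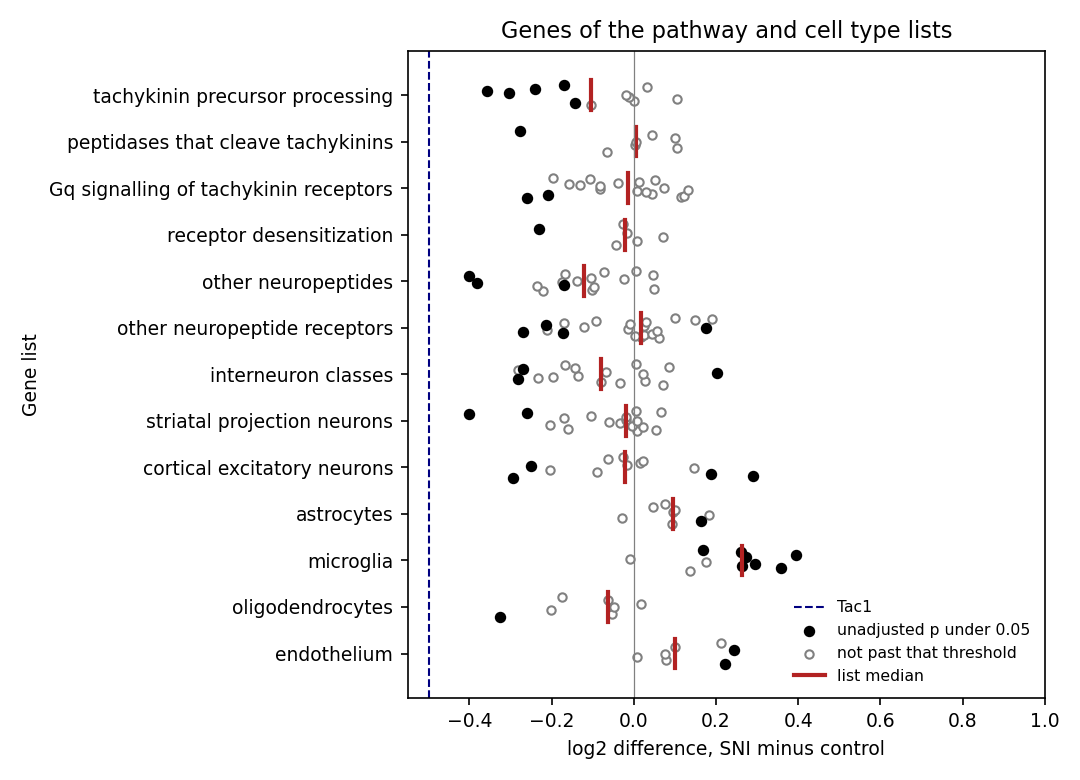
Log2 difference, SNI minus control (x axis), of each measured gene of 13 lists (y axis). Filled points have an unadjusted limma p under 0.05, open points do not, red bars are list medians and the dashed line is Tac1 (−0.50). The median lies at −0.10 for precursor processing, at −0.12 for other neuropeptides and at 0.26 for microglia, and no gene of the lists lies as low as Tac1.

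In dissected tissue fewer cells of a type and less mRNA per cell cannot be told apart, so markers of cell types are given beside Tac1. The list of striatal projection neurons holds markers of both pathways, and Penk and Drd2 mark the indirect one, whose cells are not those known to make Tac1. Of 18 markers of striatal projection neurons other than Tac1, 17 were measured, with a median of −0.02. Of these, 2 (11.8%, near the 9.19% of all genes) were lower and none was higher. The count of lower ones was 5 without control samples 1 and 3 and 4 with the hybridization controls as a covariate. The 2 were Penk, which is in the list of neuropeptides as well, and Ppp1r1b, a phosphatase inhibitor, which was at −0.26 (SE 0.06), while the dopamine receptor genes Drd1 and Drd2 were at −0.16 (SE 0.08) and 0.02 (SE 0.09). The mean of the list was −0.03 to −0.01 in the SNI samples and 0.03 to 0.09 in the control samples.
Of 18 markers of interneuron classes 17 were measured. Of these, 2 (11.8%) were lower and 1 (5.88%) was higher, near the 9.19% and 3.96% of all genes. Reln was at −0.27 (SE 0.06), Crhbp at −0.28 (SE 0.12) and Nos1, the neuronal nitric oxide synthase, at 0.20 (SE 0.06). Pvalb, which marks the fast-spiking class, was at −0.28 (SE 0.14) and did not pass. The count of lower ones was 5 without control sample 1 or control sample 2, 1 without control sample 3, SNI sample 1 or SNI sample 3, 1 by the methods' t-test and 0 with the covariate. The count of higher ones was 2 without control sample 2 and 0 without SNI sample 1 or with the covariate. The list had a median of −0.08, and its mean was −0.07 to 0.00067 in the SNI samples and −0.0095 to 0.13 in the control samples.

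Markers of some other cells differed between the groups as well, most often those of microglia, and their part in the lower Tac1 was not tested. The counts stand beside 3.96% of all genes higher and 9.19% lower at an unadjusted p under 0.05. All 10 microglia markers were measured, 7 were higher and none was lower, with a list mean of 0.06 to 0.17 in the SNI samples and −0.17 to −0.08 in the control samples. C1qa, a complement subunit, was at 0.36 (SE 0.07), C1qb at 0.26 (SE 0.06) and P2ry12, a purinergic receptor, at 0.39 (SE 0.09), and with the hybridization controls as a covariate the count of 7 was 0. Among 8 astrocyte markers 1 was higher, Aldoc (0.16, SE 0.07), with Gfap at 0.18 and S100b at 0.10, and their list mean was 0.00094 to 0.04 against −0.14 to −0.00054. That count of 1 was 0 without any one SNI sample and 2 without control sample 2.
Of 7 measured endothelial markers 2 were higher, Cldn5 (0.22) and Slco1a4 (0.24), with Vwf at 0.21 (SE 0.13), and their list mean was 0.03 to 0.07 against −0.19 to −0.02. That count of 2 was 1 without SNI sample 2 and 0 with the covariate. Of 7 measured oligodendrocyte markers 1 was lower, Cldn11 (−0.33), with Mog at −0.17 and Ermn at −0.20, and the list mean overlapped (−0.10 to 0.0083 against −0.15 to 0.27). That count of 1 was 3 without control sample 2 and 0 without any other single sample. Of 12 measured markers of cortical excitatory neurons 2 were higher, Camk2a (0.29) and Cux2 (0.19), and 2 were lower, Neurod6 (−0.25) and Bcl11b (−0.30). The lower count was 1 without any one SNI sample, and 0 without control sample 1, without control sample 3 and by the methods' t-test. The higher count was 1 without SNI sample 1 or control sample 3 and 4 without control sample 2, and both were 0 with the covariate. Their list mean overlapped too (−0.03 to 0.02 against −0.0012 to 0.06). Immediate early genes went the opposite way to Tac1, with 8 of 9 measured genes higher. Fos, Egr2 and Nr4a1 were at 0.93 (SE 0.13), 1.01 (SE 0.17) and 1.12 (SE 0.19), and the list mean was 0.17 to 0.91 against −0.38 to −0.28.

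The lower Tac1 did not rest on one array. When any 1 of the 6 samples was dropped, its log2 difference lay between −0.55 and −0.40, and the limma adjusted p between 0.0788 and 0.571. Control sample 2, which lay with the SNI arrays on the first principal component, was above all SNI samples for Tac1, and with it as the lone control the difference was −0.40 (SE 0.07). With the mean of the hybridization controls as a covariate the difference was −0.27 (SE 0.18, 95% confidence interval −0.69 to 0.14), no longer past an unadjusted p of 0.05. Those controls differed between the groups without overlap, so the covariate and the group cannot be fully told apart.

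**Figure D4:**
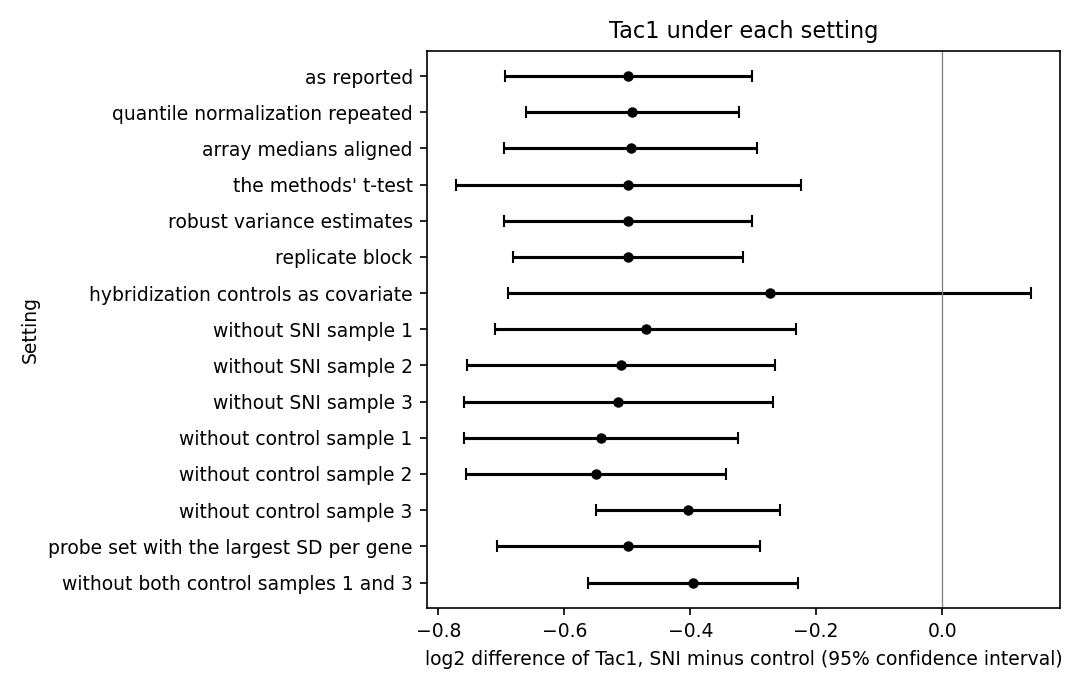
Log2 difference of Tac1, SNI minus control (x axis), under each setting (y axis); points are estimates and bars 95% confidence intervals, from 3 samples per group or as many as the setting leaves. The estimate lies between −0.55 and −0.27, and the interval holds 0 with the hybridization controls as a covariate.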

How the data were processed

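RNA of the PL was read on Affymetrix rat genome arrays. The authors corrected the arrays with RMA and applied log2 transformation and quantile normalization. The deposited log2 values were also centred so that every probe set has a median of 0 across the 6 arrays (within 4.78e-07), a step not described in the sources, and software versions are not stated there.

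Of 31099 probe sets, 57 array controls were left out. Probe sets with 1 symbol in the platform annotation (20826) were averaged per gene, and no probe set with several symbols held a member. Each gene and each probe set was fitted with limma 3.58.1 in R 4.3.3 (lmFit and eBayes, SNI minus control, no covariate, two-sided, Benjamini-Hochberg adjustment). Plots used Python 3.11.15 and matplotlib 3.10.9. With 3 arrays per group their number limits the precision.

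The genes named are all members, the 3 genes with the smallest p of each of 14 lists (172 genes, 161 measured), the 3 genes most like each member, and single genes named for their role after their values were seen. Members and lists were chosen with earlier results of these data known. Alternatives were other normalizations, tests, summaries and thresholds, a block, a covariate and samples left out; leaving out control samples 1 and 3 together was added after the data were seen.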

Additional observations from a re-analysis of the deposited data

Results flagged for a closer look

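The 18 probe sets of the hybridization controls match added transcripts and not rat mRNA. Their mean served only as a covariate in an alternative fit. It was higher on the SNI arrays, at 0.11 ± 0.07 (SD, n = 3) against −0.16 ± 0.10 (SD, n = 3) on the control arrays. The log2 difference was 0.27, and every SNI array lay above every control array. The 24 probe sets of the poly-A controls, added to the RNA before labelling, differed by 0.26 with overlapping groups.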

How the results depend on the processing

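Under all 14 alternatives Tac1 stayed lower in the SNI group (−0.55 to −0.27) and over an adjusted p of 0.05 (0.0788 to 0.672), and 13 of them kept its unadjusted p under 0.05. The count of members past that threshold, 1 as reported, was 0 with the hybridization controls as a covariate, 0 at an adjusted p under 0.10 and 0 with a fold change above 1.5 required, and ran from 1 to 2 with samples left out, 2 without control sample 2. No member passed an adjusted p of 0.05 in any setting.
The other members changed sign in some settings, and the cause was not tested. With the hybridization controls as a covariate Tac3 was at 0.23 and Tacr2 at 0.0027. Without control samples 1 and 3 together Tac3 was at 0.14 and Tacr3 at 0.19, the lone control being assumed to vary like the other samples. With samples left out one at a time Tac3 ran from −0.15 to 0.12, Tacr1 from −0.051 to 0.029, Tacr2 from −0.045 to 0.0023 and Tacr3 from −0.31 to −0.03. With the probe set of the largest SD in place of the mean, Tacr1 was at 0.0057. On single probe sets, the first of Tacr1 was at −0.0062 with quantile normalization repeated and at −0.096 with the covariate. It ran from −0.038 to 0.058 with samples left out, and the second from −0.064 to 0.016.
With the replicate number as a block Tac1 was at −0.50 (limma adjusted p = 0.168) and Tac3 at −0.03. Tacr1 was at −0.0069, Tacr2 at −0.02 and Tacr3 at −0.15, and no call changed. Deviations from the group means had correlations of 0.0085, −0.0098 and −0.069 between same-numbered samples. No shared pattern was seen, but these values cannot tell whether the numbers pair the samples. Of the 161 measured genes in all lists, 43 passed an unadjusted p of 0.05 and 0 an adjusted one. Of all genes 13.2% passed the unadjusted threshold. The lists were chosen with earlier results of these data known, so this is no test of them. Of 392 list counts recomputed, 85 moved by over 1.5 times or went to or from 0.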

Other observations

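The genes whose values over the 6 samples were most like those of Tac1, among 3100 genes with at least 50% of its range, were Cab39l (Pearson r = 0.998, n = 6), Ccdc32 (0.995) and Rasgrp1 (0.995). All 3 were lower in the SNI group, with log2 differences of −0.32, −0.27 and −0.54, a direction that follows from how they were picked. For Tac3 they were Adam23 (0.986), the myelin gene Mobp (0.966) and Gpd1 (0.964), and for Tacr3 the oligodendrocyte gene Opalin (0.991), Lin54 (0.985) and Nln (0.983), a peptidase that cleaves neurotensin. For Tacr1 they were Vom1r101 (0.984), Esyt3 (0.981) and Itsn1 (0.975), and for Tacr2 Itga2b (0.980), Elmo3 (0.974) and Btbd16 (0.974). The 6 points share arrays and normalization, and with so few points and so many candidates, values this high are found for every member, so they describe these samples and carry no test.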
